A study of Homo sapiens with 6 samples.

Results

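Collagens are secreted or membrane-bound proteins in which 3 alpha chains wind into a triple helix. Fibrillar collagens assemble into the fibrils of connective tissue, type IV collagen forms the network of basement membranes, and the fibril-associated collagens with interrupted triple helices (FACIT) sit on the surface of fibrils. The remaining types form microfibrils, hexagonal networks or anchoring fibrils, or span the cell membrane. Many collagens are heterotrimers, so that the product depends on chains encoded by different genes. LOX-PP is the propeptide that is released when lysyl oxidase, an enzyme that cross-links collagen, is processed.

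The collagen chain genes were all genes whose array probe carried a transcript accession that RefSeq names COL, a number, A and a number. They numbered 44 of 20503 named genes and had 56 of 50599 gene probes. By class, 11 were fibrillar, 6 belonged to the basement membrane, 10 were FACIT and 17 were placed in other classes. A single probe stood for 34 of the genes and several probes for the other 10.

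RNA was taken from 3 cultures of A673/TR/empty cells, the controls, and from 3 cultures of A673/TR/LOX-PP cells, and each was hybridised to an Agilent array in 1 colour. A673 is a cell line derived from an Ewing sarcoma. Both groups carry the tetracycline repressor, A673/TR/LOX-PP cells also carry a LOX-PP cDNA that doxycycline switches on, and A673/TR/empty cells carry the vector without it. The methods describe stable clones picked after lentiviral infection for strong induction of the cDNA, and whether such a clone or a mixed population was on the arrays was not stated. The labels give doxycycline at 1 µM for 72 h for all 6 samples. The methods name it clearly for A673/TR/LOX-PP cells, so whether the controls received it is not settled. For induction of the cDNA the methods give 1 µg/ml, another unit, and for the arrays they give no dose. The question was which genes differ when LOX-PP is expressed. No sample is labelled as A673/TR/LOX-PP without doxycycline. Expression of LOX-PP and other differences between the lines therefore cannot be told apart. The 3 cultures of a group are described as independent experiments.

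Levels are log2 signals minus the 75th percentile of the array, so that 0 is the 75th percentile itself. LOX, with a single probe well above background on all 6 arrays, was not higher in the samples labelled A673/TR/LOX-PP (log2 difference -0.82 with nothing subtracted, adjusted p = 0.217, limma), and the position of this probe relative to the propeptide is not given by the files. Directions therefore rest on the labels. All 10 Ewing sarcoma markers were well above background on every array and 0 passed the threshold (1 of them at an unadjusted p under 0.05). Between 56.9% and 74.8% of the spots were well above background per array, and the net signal of negative control spots ranged from 64.4 to 575. Of 10 quality measures in the array files, 5 were out of range on each A673/TR/empty array. For replicates 1, 2 and 3 of A673/TR/LOX-PP the numbers were 1, 6 and 5. Replicate 1 of A673/TR/LOX-PP was alone on its slide and had its own scan date. The fit with slide as a block therefore equals the fit without that array. Differences are given as A673/TR/LOX-PP minus A673/TR/empty, less the median difference of all tested probes, which was 0.13 on the log2 scale. The test itself, limma with Benjamini-Hochberg adjustment over 32647 tested probes, was made on the difference before this subtraction.

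A broad but incomplete set of collagen genes gave signal well above background. A total of 29 of the 44 genes were well above background on all 6 arrays by at least 1 probe, 8 were not well above background on any array and 7 were so on some arrays only. By probe, 35 of the 56 collagen probes were so on all 6 arrays. Of all 50599 gene probes, 55.7% of which carry a gene name, 24720 were so. Dim probes can meet this mark, such as that of COL9A1, with levels from -4.34 to -3.20. Detected throughout were 8 of 11 fibrillar, 8 of 10 FACIT, 11 of 17 other and 2 of 6 basement membrane genes. The number of collagen genes detected ranged from 30 to 32 in A673/TR/empty and from 30 to 35 in A673/TR/LOX-PP. The genes detected on no array were COL4A3, COL4A5, COL4A6, COL11A1, COL22A1, COL15A1, COL17A1 and COL6A6. Among them are the type IV chains of kidney and smooth muscle basement membranes, the epithelial hemidesmosomal collagen COL17A1 and the alpha1 chain of the cartilage collagen type XI, COL11A1. Those detected on some arrays were COL2A1 and COL19A1, each on 4 arrays, COL4A4, COL28A1 and COL6A3, each on 2, and COL24A1 and COL6A5, each on 1. A gene was tested if a probe stood clear of background on 3 or more of the 6 arrays. This held for 31 of the 44 collagen genes, with 39 probes, and for 16601 of all 20503 named genes.

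**Figure D1:**
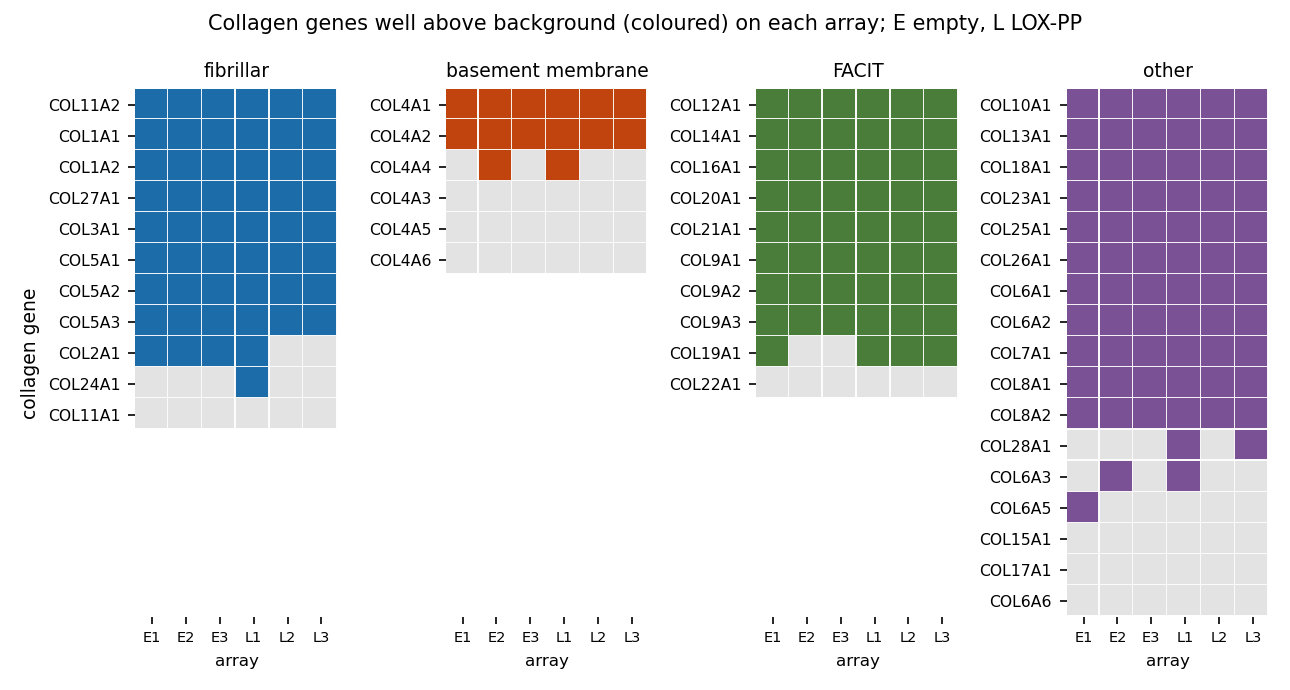
Detection of the 44 collagen genes. Rows are genes grouped by class and columns are the 6 arrays (E1 to E3 A673/TR/empty, L1 to L3 A673/TR/LOX-PP), and a coloured cell marks a gene with at least 1 probe well above background. The basement membrane panel is coloured throughout for COL4A1 and COL4A2 only, and COL2A1 is grey on 2 of the 3 A673/TR/LOX-PP arrays.

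A total of 6 collagen genes passed the threshold and all of these were lower in A673/TR/LOX-PP: COL1A2, COL2A1 and COL5A2 among the fibrillar chains, COL4A1 and COL4A2 of the basement membrane, and the transmembrane collagen COL13A1. These were 6 of 31 tested genes (19.4%), and 0 were higher. COL2A1 was tested on the strength of the control arrays, and of the 29 genes well above background on all 6 arrays 5 were lower. Over all named genes tested, each by its brightest probe, 7.07% passed in either direction, 3.37% lower and 3.7% higher. Over all probes, 5.66% passed the threshold in either direction, with 2.36% lower and 3.31% higher. The collagen genes spread to both sides, with 16 below and 15 above the median of all probes and a median of -0.05. Values of the 3 arrays of each group did not overlap for 13 genes that were lower (41.9%) and for 7 that were higher (22.6%), against 18.2% and 15.4% of all named genes. With no adjustment, 10 collagen genes were lower and 5 were higher at p under 0.05, against 12% and 11.7% of all named genes.

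**Figure D2:**
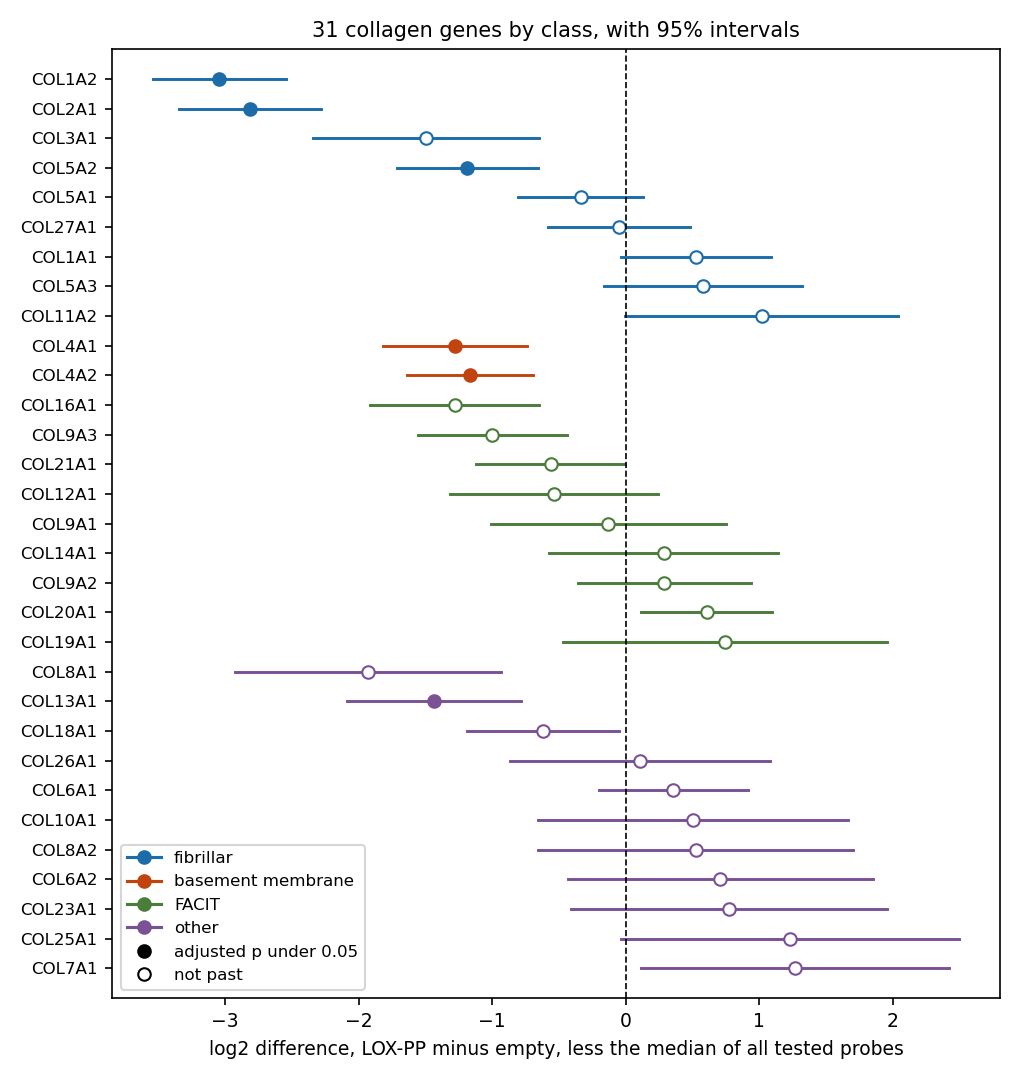
Difference of the 31 tested collagen genes by class. The x axis is the log2 difference between A673/TR/LOX-PP and A673/TR/empty arrays (n = 3 each) less the median of all tested probes, bars are 95% intervals of the limma fit, and filled circles passed the threshold. The 6 filled circles all lie left of 0, from -3.04 for COL1A2 to -1.17 for COL4A2.

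Fibrillar collagens held the largest negative differences, whereas the partner chains COL1A1 and COL5A1 did not pass the threshold. Of 9 fibrillar genes tested, 3 were lower, 0 were higher and 6 did not pass, with a median of -0.34. COL1A2, which encodes the alpha2 chain of type I collagen, the main collagen of bone and skin, had levels of 5.22, 5.22 and 5.05 in A673/TR/empty and of 2.41, 2.28 and 2.05 in A673/TR/LOX-PP. Every A673/TR/LOX-PP array lay below every control array, with a gap of 2.64. The difference was -3.04 (SE 0.21, 95% interval -3.54 to -2.54, adjusted p = 0.00121, limma), or 8.25-fold lower. The probe was spotted 10 times per array, and the SD over those spots was 0.033 to 0.063 on the log2 scale.

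COL1A1, the other chain of type I collagen, went the other way without passing the threshold. Its levels were 2.07, 2.32 and 2.29 in A673/TR/empty and 3.22, 2.67 and 2.74 in A673/TR/LOX-PP. The groups did not overlap, and the difference was 0.53 (95% interval -0.04 to 1.09, adjusted p = 0.175, limma). It was 0.32 without replicate 1 of A673/TR/LOX-PP, the highest array, and 0.35 with no filter on dim probes. COL1A1 has a single probe, as has COL1A2, so neither value could be checked against a second position in its transcript.

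COL2A1, the chain of the cartilage collagen type II, had levels of -3.07, -3.39 and -3.26 in A673/TR/empty and of -5.72, -5.89 and -6.17 in A673/TR/LOX-PP. It was a dim gene that was well above background on all 3 control arrays and on 1 of the 3 A673/TR/LOX-PP arrays, and the groups did not overlap. It therefore entered the test through the controls, and with a filter that asks for all 6 arrays it was not tested. The difference was -2.81 (SE 0.22, 95% interval -3.34 to -2.28, adjusted p = 0.00184, limma). Its size depends on the treatment of low signals: it was -1.70 with a common floor under all arrays (adjusted p = 0.00562, limma) and -1.43 with another background correction, normexp (adjusted p = 0.0307, limma). Of 6 chondrocyte markers, 5 were well above background on all arrays and 1, the cartilage matrix protein gene MATN3, was lower (-1.85, adjusted p = 0.0236, limma), while 0 were higher. The chondrocyte markers had a summed level of 0.03 to 0.24 in A673/TR/empty and of -0.03 to 0.44 in A673/TR/LOX-PP, on the log2 scale, and their part in the COL2A1 result was not tested. In these samples a lower share of cells expressing a gene and less RNA per cell cannot be told apart.

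COL5A2, a chain of type V collagen, which sits inside type I fibrils and limits their width, had levels of 4.36, 4.69 and 4.15 in A673/TR/empty and of 3.32, 3.37 and 3.34 in A673/TR/LOX-PP. The 3 A673/TR/LOX-PP values were close to each other (SD 0.02), and all were under the lowest control value. The difference was -1.18 (SE 0.22, 95% interval -1.71 to -0.65, adjusted p = 0.0430, limma), or 2.27-fold lower. With slide as a block it was -1.21 and no longer passed (adjusted p = 0.0569, limma). Leaving out any 1 of the 6 arrays also ended the call, as it did for COL13A1.

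COL5A1, the partner of COL5A2, differed less. Its brighter probe read 3.49, 3.42 and 3.43 in A673/TR/empty and 3.37, 3.16 and 3.18 in A673/TR/LOX-PP, a difference of -0.34 (adjusted p = 0.590, limma), which became -0.22 without replicate 2 of A673/TR/LOX-PP, -0.11 with quantile normalization and -0.51 with no filter on dim probes. The other probe differed by -0.57 (adjusted p = 0.285, limma), so both had the sign of COL5A2 and neither passed.

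COL3A1, the chain of the type III collagen of vessels and skin, had the smallest p among the fibrillar genes that did not pass. Its levels were 0.38, 0.58 and -0.05 in A673/TR/empty and -0.45, -1.05 and -1.68 in A673/TR/LOX-PP. The groups did not overlap, although the A673/TR/LOX-PP arrays were spread widely (SD 0.61). The difference was -1.49 (adjusted p = 0.0793, limma), and with slide as a block it was -1.83 and passed (adjusted p = 0.0363, limma).

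COL11A2 encodes the alpha2 chain of the cartilage collagen type XI, whose alpha1 chain gene COL11A1 was not well above background on any array. The brightest of its 3 probes read -1.72, -2.24 and -1.73 in A673/TR/empty and 0.21, -1.27 and -1.19 in A673/TR/LOX-PP. All 3 probes were higher without overlap, by 1.02, 1.22 and 1.38, and none passed (adjusted p from 0.0949 to 0.188, limma). The brightest probe fell from 1.02 to 0.50 without replicate 1 of A673/TR/LOX-PP (adjusted p = 0.153, limma). The other fibrillar genes tested, COL5A3 and COL27A1, had differences of 0.58 and -0.05, and COL24A1 was not tested. Of 8 fibroblast markers, 4 were well above background on all arrays, 2 were lower (POSTN and LUM, both described among the fibril-associated genes), and 1 was higher, the protease gene FAP (3.52, adjusted p = 0.00113, limma). Their summed level was 5.57 to 5.65 in A673/TR/empty and 5.38 to 5.99 in A673/TR/LOX-PP, and their part in the fibrillar results was not tested.

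**Figure D3:**
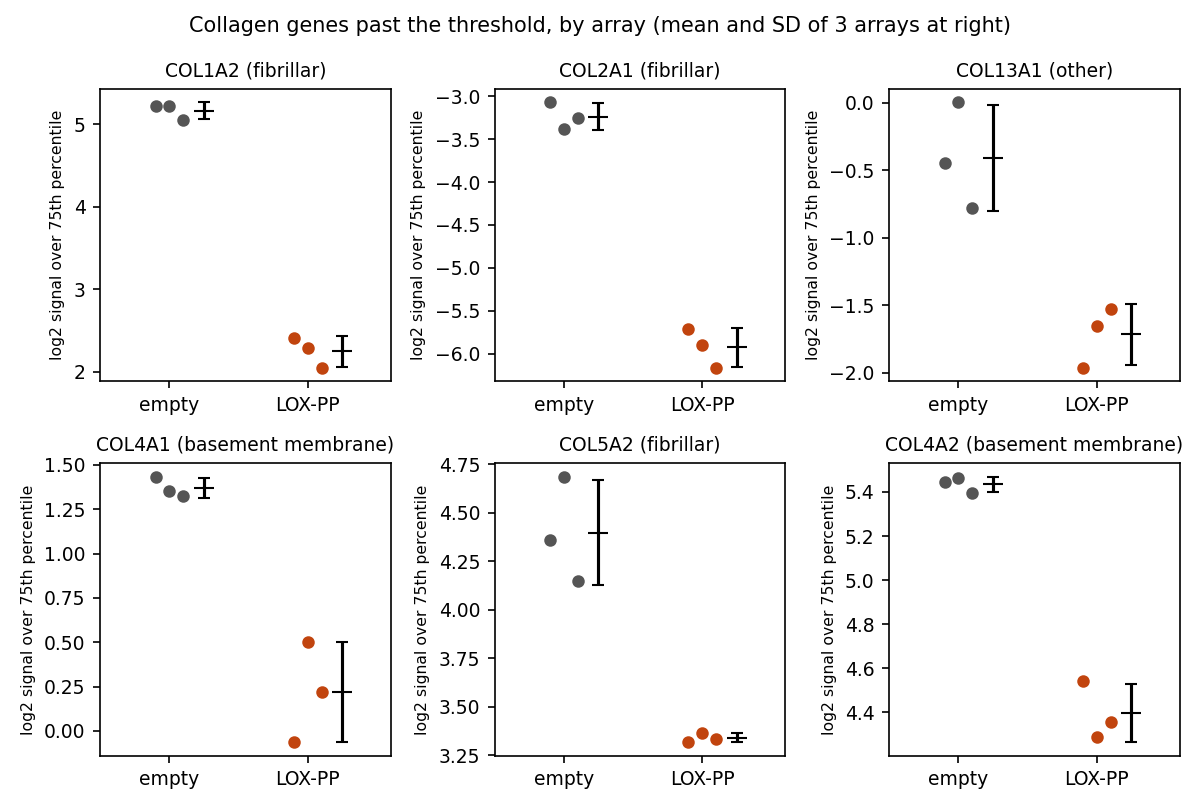
Levels of the 6 collagen genes that passed the threshold. Each panel plots the log2 signal over the 75th percentile of the array for 3 A673/TR/empty and 3 A673/TR/LOX-PP arrays (replicates 1 to 3 from left to right, each panel on its own scale), with mean and SD beside the points. In every panel the 3 A673/TR/LOX-PP points lie below the 3 control points, and the gap was widest for COL1A2 (2.64) and COL2A1 (2.33).

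Of the basement membrane genes, COL4A1 and COL4A2 were the pair that was detected, and both were lower in A673/TR/LOX-PP by nearly equal amounts. The type IV collagen genes lie head to head in pairs on opposite strands, and COL4A1 and COL4A2 encode the chains of the trimer found in nearly all basement membranes. In RefSeq (GRCh38.p14) 126 bases separate their start sites on chromosome 13, against 418 for COL4A4 and COL4A3 on chromosome 2 and 379 for COL4A6 and COL4A5 on chromosome X. The stretch between COL4A1 and COL4A2 is shown because both genes start from its ends, and the windows before COL4A3 and COL4A5 because these pairs were not detected throughout. COL13A1 is the other gene past the threshold with a window in the RefSeq table. Capitals mark the GC box GGGCGG, the CCAAT box and the TATA box TATAAA on either strand, found by their letters alone. All are written 5′ to 3′ on the plus strand, at chr13:110307158-110307283, chr2:227164374-227164623, chrX:108439588-108439837 and chr10:69801656-69801905.
COL4A1/COL4A2: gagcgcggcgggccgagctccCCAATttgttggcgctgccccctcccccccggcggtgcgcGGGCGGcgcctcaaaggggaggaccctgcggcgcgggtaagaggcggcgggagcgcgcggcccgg
COL4A3: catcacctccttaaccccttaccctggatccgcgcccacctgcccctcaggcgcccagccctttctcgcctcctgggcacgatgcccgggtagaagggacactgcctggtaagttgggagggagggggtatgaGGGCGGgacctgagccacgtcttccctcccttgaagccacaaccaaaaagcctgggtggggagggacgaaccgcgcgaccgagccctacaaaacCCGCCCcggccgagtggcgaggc
COL4A5: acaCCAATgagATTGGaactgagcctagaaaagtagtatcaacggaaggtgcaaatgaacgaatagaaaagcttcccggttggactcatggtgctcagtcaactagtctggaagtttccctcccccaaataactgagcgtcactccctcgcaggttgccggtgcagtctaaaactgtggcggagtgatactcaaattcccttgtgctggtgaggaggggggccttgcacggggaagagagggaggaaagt
COL13A1: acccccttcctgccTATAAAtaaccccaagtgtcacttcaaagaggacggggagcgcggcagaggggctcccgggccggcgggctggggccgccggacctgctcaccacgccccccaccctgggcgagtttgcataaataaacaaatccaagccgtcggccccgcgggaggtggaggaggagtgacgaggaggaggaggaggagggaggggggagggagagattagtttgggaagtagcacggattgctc
The stretch shared by COL4A1 and COL4A2 holds 1 GC box, 1 CCAAT box and 20 CpG dinucleotides, and 80.2% of its bases are G or C. The COL4A3 window holds 2 GC boxes and 17 CpG, the COL4A5 window 2 CCAAT boxes and 8 CpG, and the COL13A1 window 1 TATA box and 16 CpG. These counts are over the bases shown, 126 for the shared stretch and 250 for each of the others. Shares over whole windows of 300 bases are therefore an unlike measure. Among all 35116 promoter windows of 300 bases, 45.0% held a GC box, 34.6% a CCAAT box and 11.5% a TATA box. Of the 32 collagen genes with a window, 21 held a GC box, 12 a CCAAT box and 7 a TATA box in at least 1 window. The ratio of observed to expected CpG was taken from the highest window of each collagen gene. Its median was 0.76 over the 21 that were tested and 0.49 over the 11 that were too dim to be tested. Over all windows, each counted singly, it was 0.58. Values by gene and by single window are unlike measures, so these are given only as a description.

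COL4A1 had levels of 1.43, 1.35 and 1.33 in A673/TR/empty and of -0.06, 0.50 and 0.22 in A673/TR/LOX-PP. COL4A2 had levels of 5.45, 5.46 and 5.39 in A673/TR/empty and of 4.54, 4.29 and 4.36 in A673/TR/LOX-PP. For both genes the control arrays were tightly grouped (SD 0.06 and 0.04) and no A673/TR/LOX-PP array reached them. COL4A1 differed by -1.28 (SE 0.23, 95% interval -1.82 to -0.74, adjusted p = 0.0351, limma), or 2.43-fold lower. COL4A2 differed by -1.17 (SE 0.20, 95% interval -1.64 to -0.70, adjusted p = 0.0315, limma), or 2.24-fold lower. Both calls held with slide as a block and were lost without replicate 1, 2 or 3 of A673/TR/empty or replicate 2 or 3 of A673/TR/LOX-PP. With no filter on dim probes both were also lost (adjusted p = 0.131 and 0.129, limma), as was COL4A1 in the methods' t-test, and the replicate block ended both calls too (adjusted p = 0.102 and 0.104, limma).

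Both genes lie on chromosome 13, and many other genes of that chromosome were lower too. The 285 tested genes of chromosome 13 had a median difference of -0.82, 82.1% fell under the median of all probes against 56.5% of named genes in general, and 18.2% passed the threshold as lower. The median gene of the chromosome, centred on its mean over the arrays, read 0.34, 0.48 and 0.24 in A673/TR/empty and -0.35, -0.28 and -0.40 in A673/TR/LOX-PP. COL4A1 lay 0.46 and COL4A2 lay 0.34 below the chromosome's own median, and 55 and 73 of the 285 genes were lower than each. The part of this shift in the type IV result was not tested. The other 4 collagen genes past the threshold are on other chromosomes, namely 7, 12, 2 and 10 for COL1A2, COL2A1, COL5A2 and COL13A1, where the median difference of the genes was -0.02, -0.18, -0.23 and -0.20.

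**Figure D4:**
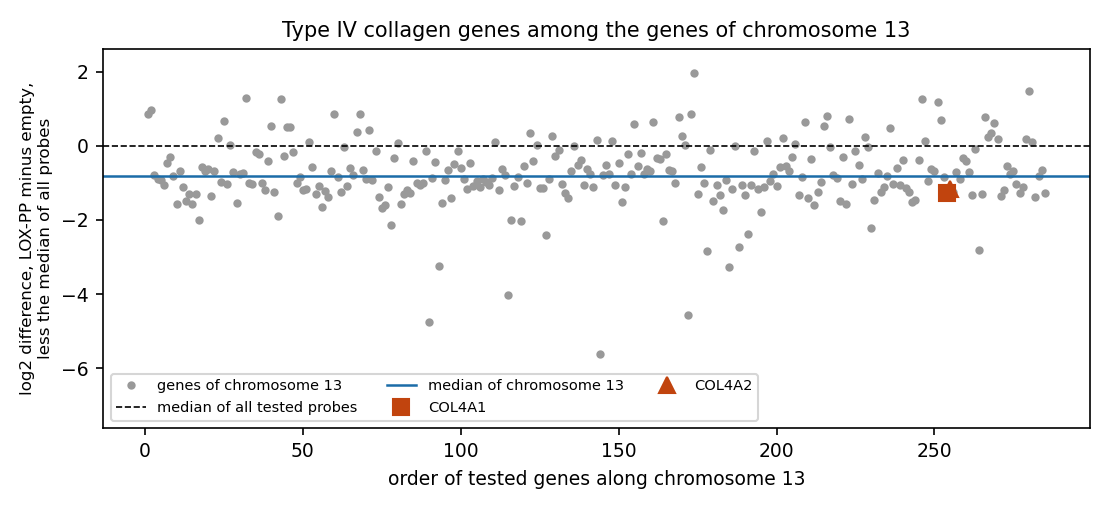
COL4A1 and COL4A2 among the 285 tested genes of chromosome 13. The x axis is the order of tested genes along the chromosome, the y axis the log2 difference between A673/TR/LOX-PP and A673/TR/empty arrays less the median of all probes, and each point is a gene by its brightest probe. The blue line, the chromosome's median, lies at -0.82, and COL4A1 (-1.28) and COL4A2 (-1.17) lie below it within the cloud of genes.

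The other 4 type IV chains were not tested. COL4A3, COL4A5 and COL4A6 were not well above background on any array, and COL4A4 was so on replicate 2 of A673/TR/empty and replicate 1 of A673/TR/LOX-PP. COL4A3 to COL4A5 encode the chains of the mature network of the kidney glomerulus and of the inner ear.

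FACIT collagens showed no gene past the threshold. Of 9 tested, 0 were lower and 0 higher, 5 lay below and 4 above the median of all probes, and their median was -0.13. This median turned to 0.07 with slide as a block, was 0.0059 and -0.22 without replicates 3 and 2 of A673/TR/empty and -0.31 and -0.23 without replicates 3 and 2 of A673/TR/LOX-PP, and was between -0.30 and -0.28 with quantile normalization, the filter on all 6 arrays or no filter. With no adjustment 2 were lower and 1 was higher at p under 0.05 (limma). The methods' t-test passed 0 of them, and limma with an intensity trend passed COL16A1 and COL9A3 as lower. COL16A1, the chain of a collagen found in specialised fibrils and at cell contacts, came nearest, with levels of 4.14, 4.47 and 4.18 in A673/TR/empty and of 3.42, 3.24 and 2.67 in A673/TR/LOX-PP. The groups did not overlap and the difference was -1.28 (95% interval -1.91 to -0.65, adjusted p = 0.0567, limma). With slide as a block it was -1.47 and passed (adjusted p = 0.0431, limma). The second probe of COL16A1, however, differed by only -0.21 (adjusted p = 0.893, limma), and its groups overlapped.

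The 3 chains of type IX collagen, which coats cartilage fibrils, differed from each other. COL9A3 had levels of 3.61, 3.75 and 3.25 in A673/TR/empty and of 2.45, 2.76 and 2.80 in A673/TR/LOX-PP, which did not overlap (difference -0.999, 95% interval -1.56 to -0.44, adjusted p = 0.0865, limma). COL9A2 had levels of -0.81, -1.22 and -0.95 and of -0.20, -0.52 and -1.002, which overlapped (difference 0.29, 95% interval -0.36 to 0.94, adjusted p = 0.432, limma). The COL9A2 difference was 0.07 without replicate 1 and 0.51 without replicate 3 of A673/TR/LOX-PP, and 0.12 with no filter on dim probes. COL9A1 had levels of -3.69, -3.92 and -3.20 and of -4.34, -3.24 and -3.23, which also overlapped. Its difference of -0.13 (95% interval -1.01 to 0.75, adjusted p = 0.998, limma) turned to 0.20 with slide as a block and to 0.0059 without replicate 3 of A673/TR/empty.

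The other FACIT genes tested were COL12A1, COL14A1, COL19A1, COL20A1 and COL21A1, with differences from -0.56 to 0.74 and adjusted p from 0.0977 to 0.562 (limma). COL12A1 and COL16A1 have probes that gave unlike values, and for COL12A1 they had opposite signs (-0.54 and 0.22). Both probes of COL20A1, a gene chosen for mention after its values were seen, were higher without overlap, by 0.61 and 1.72, and neither passed (adjusted p = 0.0977 and 0.0669, limma). COL19A1 was well above background on 1 of 3 A673/TR/empty and on all 3 A673/TR/LOX-PP arrays and differed by 0.74 (adjusted p = 0.377, limma).

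The remaining classes had a median of 0.50, with 1 gene lower, 0 higher and 10 not past the threshold, 8 of which had positive differences. The median was 0.25 without replicate 2 of A673/TR/empty, 0.33 without replicate 3 of A673/TR/LOX-PP and 0.33 with no filter on dim probes. COL13A1, a transmembrane collagen of cell adhesion sites and of the neuromuscular junction, had levels of -0.45, 0.00 and -0.78 in A673/TR/empty and of -1.97, -1.65 and -1.53 in A673/TR/LOX-PP. The control arrays were spread (SD 0.39), and all lay above the A673/TR/LOX-PP arrays. The difference was -1.44 (SE 0.27, 95% interval -2.08 to -0.79, adjusted p = 0.0418, limma), or 2.71-fold lower. The SD over its 7 to 10 spots was at most 0.10. With slide as a block the difference was -1.35 and did not pass (adjusted p = 0.0651, limma).

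COL8A1, a chain of the network collagen type VIII of vessels and cornea, had the largest difference of the genes that did not pass. Its levels were -0.51, -0.64 and 0.10 in A673/TR/empty and -1.28, -2.68 and -2.50 in A673/TR/LOX-PP. The groups did not overlap, and replicate 1 of A673/TR/LOX-PP stood nearer to the controls than the other two. The difference was -1.93 (95% interval -2.93 to -0.93, adjusted p = 0.0575, limma), and without that array, which is also the fit with slide as a block, it was -2.40 and passed (adjusted p = 0.0153, limma). The probes of its partner COL8A2 differed by -0.15 and 0.53 and did not pass.

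The microfibril collagen type VI, a widespread pericellular collagen, did not pass the threshold in any chain that was tested. COL6A1 had levels of 3.48, 3.10 and 3.72 in A673/TR/empty and of 3.94, 3.85 and 3.96 in A673/TR/LOX-PP (difference 0.36, 95% interval -0.20 to 0.91, adjusted p = 0.291, limma), and the difference was 0.60 with quantile normalization and 0.18 with no filter on dim probes. COL6A2 had levels of -0.99, -1.44 and -0.20 and of -0.82, -0.06 and 0.76 by its brighter probe (difference 0.71, 95% interval -0.43 to 1.85, adjusted p = 0.367, limma), and its other probe differed by 0.65. The brighter probe differed by 0.31 without replicate 3 of A673/TR/LOX-PP and by 1.07 without replicate 1. COL6A1 did not overlap between groups and COL6A2 did. COL6A3, which encodes the long chain of the trimer, was well above background on 1 array of each group by 1 of its probes and on no array by the other, and was not tested.

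The other genes of these classes that were tested were COL7A1, COL10A1, COL18A1, COL23A1, COL25A1, COL26A1 and COL8A2, with differences from -0.62 to 1.27 and adjusted p from 0.163 to 0.788 (limma). COL7A1, the chain of the anchoring fibrils below epithelia, and COL25A1, a transmembrane collagen of neurons, were chosen for mention after their values were seen. COL7A1 read -0.76, -0.96 and 0.90 in A673/TR/empty and 1.08, 1.24 and 1.04 in A673/TR/LOX-PP. Replicate 3 of A673/TR/empty stood nearer to the A673/TR/LOX-PP arrays than to its own group, the difference was 1.27 (adjusted p = 0.163, limma), and without that array it was 1.79 and passed (adjusted p = 0.0142, limma). COL25A1 read -1.03, -0.79 and -0.78 in A673/TR/empty and 1.79, -0.03 and -0.27 in A673/TR/LOX-PP (difference 1.23, adjusted p = 0.205, limma). Its groups did not overlap, and replicate 1 of A673/TR/LOX-PP stood far above the other arrays, and without it the difference was 0.55 (adjusted p = 0.0974, limma).

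Partner chains of the same collagen were then compared within each array, which removes the scaling of the arrays. The 5 pairs were chosen after the values were seen, and the smallest two-sided p that 3 against 3 arrays allow in the exact permutation test is 0.1. The level of COL1A2 less that of COL1A1 changed by -3.57 between groups, to between -3.75 and -3.32 in A673/TR/LOX-PP when its mean on the controls is set to 0 (exact permutation p = 0.1, adjusted over the 5 pairs 0.167). COL9A3 less COL9A2 changed by -1.29 and COL5A2 less COL5A1 by -0.85, each without overlap (exact permutation p = 0.1, adjusted 0.167 for each). COL4A1 less COL4A2 changed by -0.11, with overlap (exact permutation p = 0.7), and COL6A2 less COL6A1 by 0.35, with overlap (exact permutation p = 0.6, adjusted 0.7). The design cannot take any of these below 0.05.

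**Figure D5:**
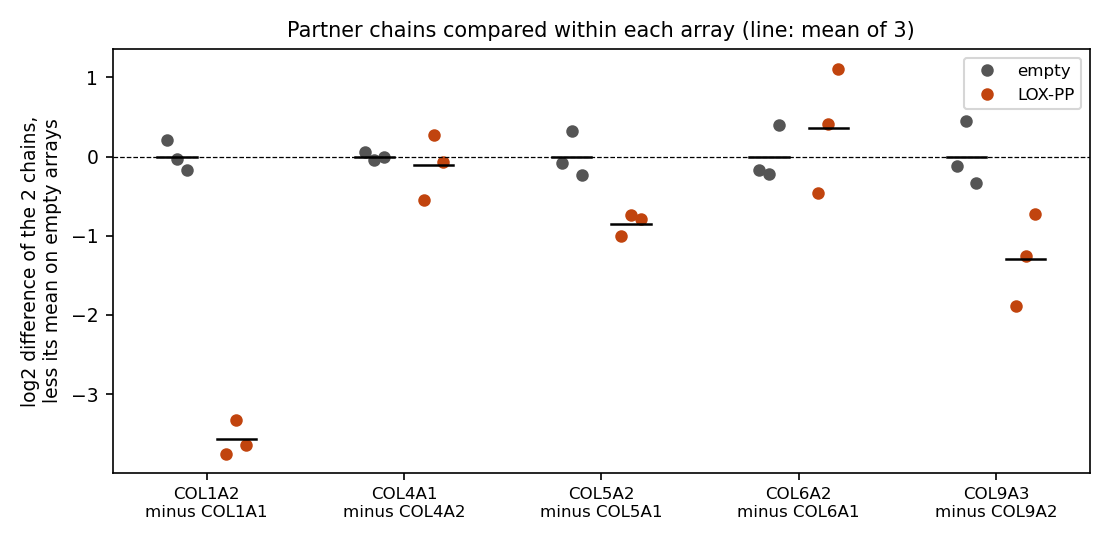
Partner chains of heterotrimeric collagens within each array. Each point is the log2 level of the first chain less that of the second chain on 1 array, set to a mean of 0 in A673/TR/empty, and lines are means of 3 arrays. The 3 A673/TR/LOX-PP points of COL1A2 minus COL1A1 lie near -3.57, and those of COL4A1 minus COL4A2 lie on both sides of 0.

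Genes that modify, process and accompany collagen were taken from 7 lists. These were written by hand with earlier results of these data known, so their shares are only a description. Of their 77 tested genes, 11 were lower (14.3%), 0 were higher and 66 did not pass. Of all named genes 3.37% were lower and 3.7% higher, and the median of the 77 was -0.29. The 11 include LUM and OGN, which entered the test mainly through the control arrays. With the filter on all 6 arrays, 11 partner genes passed and 9 of them were lower. Of 18 hydroxylases, glycosyltransferases and chaperones, which act on the chains in the endoplasmic reticulum, 3 were lower. P3H2, a prolyl 3-hydroxylase that acts on type IV collagen, had levels of 3.24, 3.71 and 3.63 in A673/TR/empty and of 1.58, 1.83 and 1.39 in A673/TR/LOX-PP, without overlap (difference -2.06, adjusted p = 0.00738, limma). PLOD2, the lysyl hydroxylase of the collagen telopeptides, had levels of 2.48, 2.66 and 2.54 and of 1.11, 1.08 and 1.12 (difference -1.59, adjusted p = 0.00928, limma). FKBP10, a chaperone of type I collagen, had levels of 2.29, 1.66 and 2.26 and of 0.20, 0.55 and 0.16 (difference -1.89, adjusted p = 0.0142, limma). The arrays of the groups were apart for all of these, and the collagen chaperone gene SERPINH1, named after its value was seen, differed by -0.10 and did not pass.

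Of 10 genes of collagen export, 0 passed in either direction (limma, with 1 lower and 1 higher at an unadjusted p under 0.05). Of 8 procollagen proteinases and enhancers, 2 were lower, the enhancer PCOLCE2 (-1.86, adjusted p = 0.0142, limma) and the proteinase TLL1 (-1.69, adjusted p = 0.0188, limma). Of 6 cross-linking enzymes, LOX among them, 0 passed (limma, with 2 lower and 0 higher at an unadjusted p under 0.05). Of 10 collagen receptors, 1 was lower, ITGA1, the alpha1 integrin chain that binds collagen (-1.89, adjusted p = 0.00761, limma).

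Of 14 partners of type IV collagen in basement membranes, 1 was lower. NID2, a nidogen that links the laminin and collagen IV networks, had levels of 1.96, 2.20 and 1.26 in A673/TR/empty and of -1.87, -0.64 and -0.83 in A673/TR/LOX-PP. The groups were far apart (difference -3.04, adjusted p = 0.0115, limma).

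Of 11 fibril-associated proteoglycans and glycoproteins, 4 were lower and the median was -0.55. POSTN, periostin, had levels of 0.12, 0.71 and -0.89 in A673/TR/empty and of -5.03, -4.71 and -4.20 in A673/TR/LOX-PP (difference -4.75, adjusted p = 0.00311, limma). It was well above background on 2 of the 3 A673/TR/LOX-PP arrays and lies on chromosome 13, whose median was -0.82. Of the 11 lower partner genes, POSTN alone is on that chromosome. LUM and OGN, small leucine-rich proteoglycans that bind fibrils, differed by -2.42 (adjusted p = 0.0191, limma) and -1.80 (adjusted p = 0.0287, limma). Each was well above background on 1 of the 3 A673/TR/LOX-PP arrays and so entered the test mainly through the control arrays. TNXB, tenascin X, was bright on all arrays, with levels of 2.85, 3.04 and 2.56 and of 1.15, 1.29 and 0.81 (difference -1.86, adjusted p = 0.0118, limma). LUM and POSTN are also on the fibroblast marker list.

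Of 6 endothelial markers, 3 were well above background on all arrays, TEK was so on none, and 0 passed the threshold (limma, with 2 higher at an unadjusted p under 0.05), with a summed level of -0.86 to -0.29 in A673/TR/empty and of -0.41 to 0.15 in A673/TR/LOX-PP. Of 6 epithelial markers, 4 were well above background on all arrays, and CDH1 and KRT5 were so on none. KRT14 was higher (5.13, adjusted p = 0.000142, limma). The epithelial markers had a summed level of 6.38 to 6.41 in A673/TR/empty and of 6.03 to 6.49 in A673/TR/LOX-PP. The part of these genes in the collagen results was not tested.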

How the data were processed

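Per the labels and file headers, the authors deposited spot intensity from Feature Extraction (version 10.7), already corrected for background, and a table of processed log2 values. That table equals the values used here, centred per probe (99.9% of values within 0.05), so its scale, centring and direction are known, and its column medians ran from -0.34 to 0.41. After removal of control spots and of spots marked as outliers, log2 intensity was averaged per probe and scaled to the 75th percentile of the array. The 32647 probes that stood clear of background on 3 or more of 6 arrays entered limma (3.58.1, R 4.3.3), without a block, at an adjusted p under 0.05. A gene stood by its tested probe with the highest mean signal. P-values measure the spread between these 6 cultures, not between separately derived lines, and the number of arrays limits the precision.

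Gene names, chromosomes and promoter windows came from RefSeq tables of GRCh38.p14, a later build than that of the array design, and no probe coordinates are given. Collagen classes and the 12 gene lists were written by hand. The members and lists were chosen with earlier results of these data known. Named genes were those past the threshold, in each class the one with the next smallest p, and the chains of heterotrimers. Of each partner list, the genes past the threshold were named, at most 4. Genes named outside this are marked. Alternatives were other normalizations, background corrections, filters, tests and blocks, and leaving out each array. The normexp correction (offset 50) used the median spot signal. The steps were tested on simulated data.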

Additional observations from a re-analysis of the deposited data

How the results depend on the processing

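Across 17 alternatives the call for COL1A2 held in 17, with differences from -3.22 to -2.92, and that for COL2A1 in the 16 that tested it (-2.99 to -1.43). COL4A2 lost its call in 7 of 17, COL4A1 in 8, COL5A2 in 10 and COL13A1 in 11, and none changed sign. COL13A1 thus kept its call in 6. Of the genes not past the threshold, COL16A1 and COL8A1 each passed as lower in 6 of 17, COL3A1 in 3 and COL9A3 in 1. The genes counted below therefore changed between settings. The 17 are not all distinct. Slide as a block is the same fit as leaving out replicate 1 of A673/TR/LOX-PP, and the authors' values nearly equal those used here. The collagen genes past the threshold numbered 6, and 6 to 7 with quantile normalization (7), the median of bright probes, the authors' values, normexp, a common floor, the filter on all 6 arrays, slide as a block or any probe of a gene. They fell to 2 (2 probes) with no filter on dim probes and to 3 (3 probes) in the methods' t-test, and rose to 10 (11 probes) with an intensity trend. Partner genes past it numbered 11, and 4, 4 and 18 (15 of them lower) under these 3. They numbered 13 with quantile normalization (12 lower). With normexp or the authors' values there were 11 (10 lower), and with the filter on all 6 arrays 11 (9 lower). Leaving out 1 array gave 2 to 7 collagen genes, 2 to 7 probes and 2 to 11 partner genes. There were 2 collagen genes without A673/TR/empty replicate 1 or 2 or A673/TR/LOX-PP replicate 2 or 3, and 3 without A673/TR/empty replicate 3. Partner genes were 2 without A673/TR/empty replicate 1 or 2. Over all probes, 407 to 2062 passed when 1 array was left out, 516 with no filter, 566 in the methods' t-test and 2774 with the trend.

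The replicate block left 2 collagen genes (2 probes), COL1A2 and COL2A1, 7 partner genes (6 lower) and 860 probes in all. Whether arrays of the same number came from the same experiment is not stated. Their deviations correlated at 0.27, -0.39 and 0.23, and 2 of 6 arrays correlated best with their own number. So few arrays cannot settle whether the samples are paired.

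The fibrillar median of -0.34 became -0.11 with quantile normalization, -0.45 with normexp, -0.14 with the filter on all 6 arrays, -0.51 with no filter and -0.44 with slide as a block, and -0.44 to -0.22 without 1 array. The basement membrane median of -1.22 became -1.11 with quantile normalization and -1.40 with no filter, and -1.31 to -1.16 without 1 array. COL9A1 turned from -0.13 to 0.20 with slide as a block, and ran from -0.31 to 0.20 without 1 array. The cause of these changes was not tested. Dim probes set the limit on depth: 13 collagen genes were not tested.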

Other observations

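Some collagen genes were too dim to be tested but were well above background on single arrays, and their levels are given without a test. COL24A1, a fibrillar collagen, read -6.56, -7.24 and -6.19 in A673/TR/empty and -3.81, -4.52 and -5.62 in A673/TR/LOX-PP, with replicate 1 of A673/TR/LOX-PP alone well above background. COL28A1, a collagen of peripheral nerve, read -6.65, -6.33 and -4.55 and then -4.54, -5.66 and -4.23, and was well above background on replicates 1 and 3 of A673/TR/LOX-PP. COL6A3 read -7.92, -2.98 and -4.05 and then -6.06, -6.01 and -6.75 by the probe that was well above background on replicate 2 of A673/TR/empty and replicate 1 of A673/TR/LOX-PP. COL6A5, another type VI chain, read -5.93, -6.45 and -5.07 and then -6.50, -4.15 and -5.16, and replicate 1 of A673/TR/empty alone was well above background. Most of these values were not well above background, and no order between groups is read from them.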
